A study of Mus musculus with 31 samples.

Results

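The genes of the proteasome were described in hippocampal RNA from 31 mice. Members were all gene names of the expression table that begin with Psm, 1 of the letters a to g and a number, and where a name had several loci the locus with the highest mean level over the mice was used. The rule took 51 names of the 23007 in the table. Of these, 48 are genes of proteasome subunits, activators, an inhibitor or assembly chaperones. The other 3 are Psmc3ip, whose protein serves DNA recombination, the pseudogene Psmb7-ps2, and Psme2b, a relative of Psme2.

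All mice were C57BLKS/J animals labelled as 3 months old. The 11 db/m mice, littermate controls, are heterozygous for db, a mutation of Lepr, which encodes the leptin receptor. The 10 db/db mice are homozygous for db and become obese and diabetic, and the 10 db/db-IF mice are db/db mice kept on intermittent fasting (IF), in which food was withheld for 24 h on alternate days over 28 days. According to the study's methods the animals were males, and those methods put the start of IF at a later age than the labels give. There was 1 library per mouse, and no db/m mouse was fasted, so an effect of fasting could be seen only on the db/db background.

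The proteasome degrades proteins tagged with ubiquitin. Its barrel-shaped core has outer rings of alpha subunits, the Psma genes, and inner rings of beta subunits, the Psmb genes, of which Psmb5, Psmb6 and Psmb7 carry the catalytic sites. A regulatory cap binds the ends of the barrel, with a ring of ATPases (Psmc genes) that unfold the substrate and with non-ATPase subunits (most Psmd genes) that bind ubiquitin chains and remove them. After interferon the catalytic subunits can be replaced by Psmb8, Psmb9 and Psmb10, which gives the immunoproteasome. Other caps, the activators encoded by Psme genes, and a set of chaperones that build the core and the cap complete the family. In neurons the proteasome turns over synaptic proteins, and blocking it impairs long-lasting synaptic plasticity.

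Most subunit genes were higher in db/db-IF mice than in the other mice, including all tested alpha and beta subunits of the core. Values are FPKM, fragments scaled to transcript length and to the mapped fragments of the library, and differences are given as log2(FPKM + 1) ± SE from limma, with p adjusted over the 17139 tested loci, those whose FPKM exceeded 1 in 10 mice or more. Of the 51 members 47 passed this filter. Compared with db/m and db/db mice combined, 32 of the 47 were higher in db/db-IF mice and 1, Psmd11, was lower at an adjusted p under 0.05. Over all tested loci 26.8% were higher and 30.9% were lower in that comparison. The median difference was 0.17 for the 47 members and -0.031 for all tested loci. In this bulk RNA, more cells of a type and more RNA per cell cannot be told apart.

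The pairs of groups gave the same picture in parts. Between db/db-IF and db/db mice 28 of the 47 members were higher and 4 lower, where 23.7% of all loci were higher and 27.4% lower. Between db/db-IF and db/m mice 34 were higher and 1 was lower, beside 26.2% and 29.4% of all loci. Those groups differ in genotype as well as in fasting, and the combined mice hold both genotypes. Only db/db-IF against db/db compares mice of the same genotype. The db/db and db/m mice, neither of them fasted, differ in genotype, obesity and diabetes, which cannot be told apart here. Between them 5 were higher and 0 lower in the limma test, whereas 2.96% of all loci were higher and 2.79% lower. At an unadjusted p under 0.05, 19 members were higher and 2 lower. An ordinary linear model with a library-size term, which changes both the test and the covariates, called 8 higher and 0 lower in this comparison. Beside these it called 4.44% of all loci higher and 3.61% lower. The 5 became 3 without db/m mouse 2 or without db/db mouse 5, and 8 without db/db mouse 6. Of all tested loci 380, 438 and 553 were higher in the same order, and 507 with all mice. These comparisons share mice and are not independent of each other. In 28 of the 47 members the mean rose from db/m over db/db to db/db-IF mice, and this order held for 24.2% of all tested loci.

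**Figure D1:**
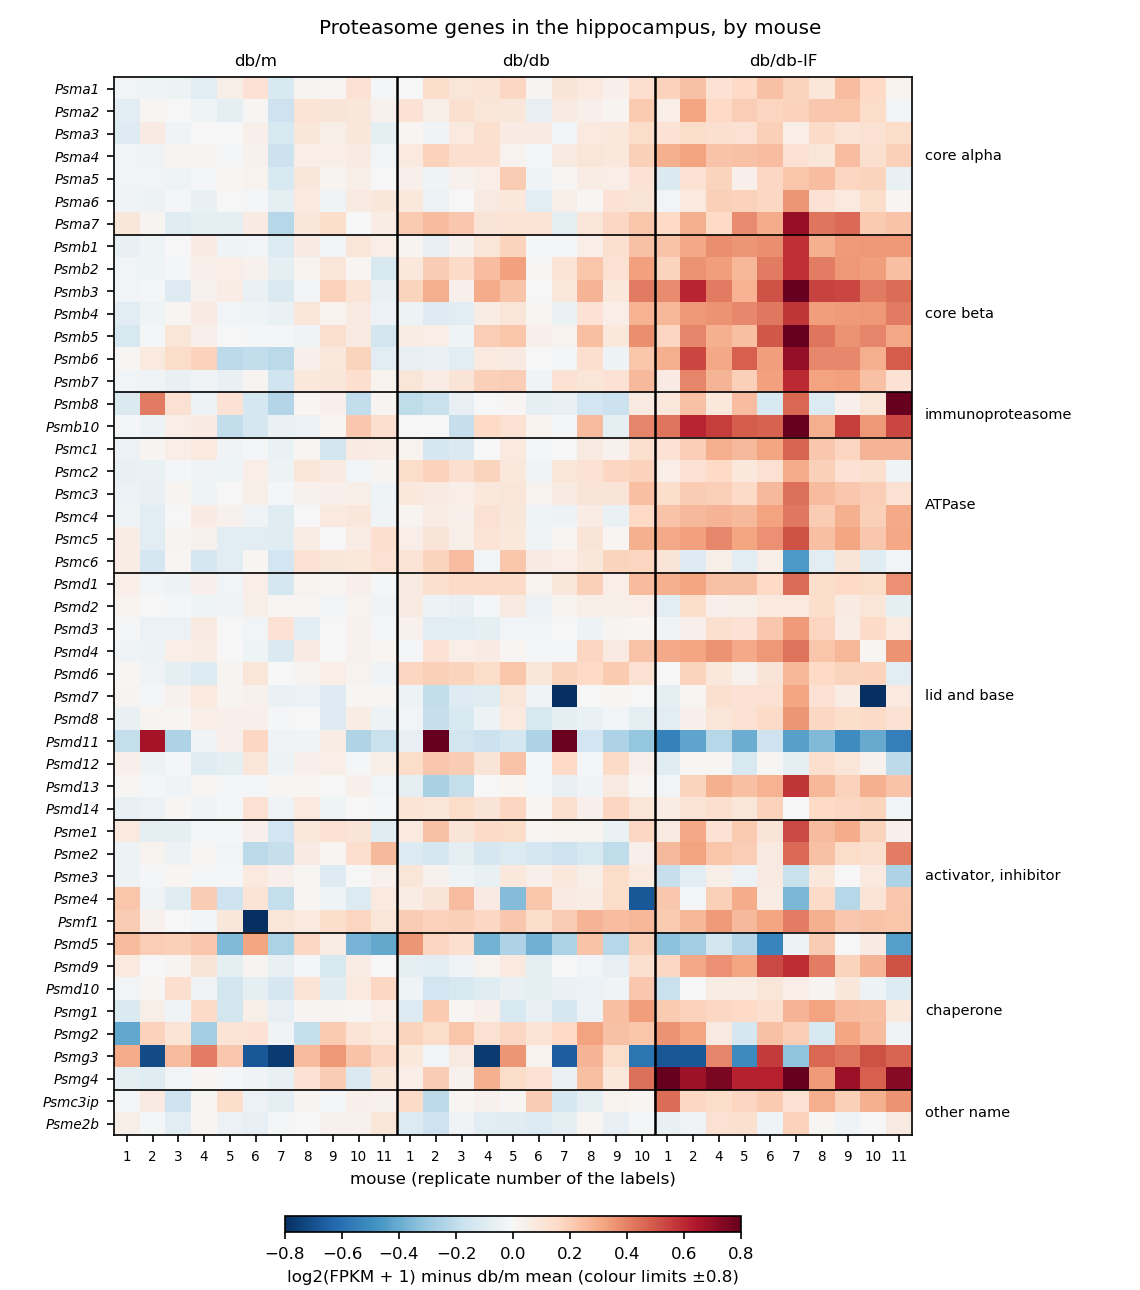
Level of each of the 47 tested members (rows, by role) in each of the 31 mice (columns, by group), as log2(FPKM + 1) minus the db/m mean, with colours limited at ±0.8. The beta subunits are red across the 10 db/db-IF mice and deepest in mouse 7, while Psmd7, Psmd11 and Psmf1 show 1 to 3 mice far from the rest and Psmg3 shows separate levels within groups.

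The promoters of the members were searched for the antioxidant response element core TGACNNNGC, the site that Nfe2l1 and Nfe2l2 bind, and for the CCAAT box, on both strands. RefSeq windows of GRCm38.p6, from 250 bases before to 50 after the start of the gene, were at hand for 42 members, with 45 windows. The response element core was found in 6 of the 45 windows (13.3%) and in 12.4% of all 32851 promoters, and the CCAAT box in 15 (33.3%) and in 37.4%. The 6 genes with the core were Psmb5, Psmb6, Psmc6, Psmd9, Psmd12 and Psme4. The 250 bases before the start are shown for 4 of them, because Psmb5 and Psmd9 were higher and Psmc6 and Psmd12 lower in db/db-IF than in db/db mice. The match to the core is in capitals, 5′ to 3′ on the gene's strand. Psmb5 lies at chr14:54617996-54618245, minus strand, Psmd9 at chr5:123227940-123228189, plus strand, Psmc6 at chr14:45329574-45329823, plus strand and Psmd12 at chr11:107479278-107479527, plus strand.
Psmb5: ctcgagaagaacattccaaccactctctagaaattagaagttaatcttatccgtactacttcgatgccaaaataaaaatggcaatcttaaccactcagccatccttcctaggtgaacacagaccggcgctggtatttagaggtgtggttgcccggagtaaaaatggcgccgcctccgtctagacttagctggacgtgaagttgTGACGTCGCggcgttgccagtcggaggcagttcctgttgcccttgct
Psmd9: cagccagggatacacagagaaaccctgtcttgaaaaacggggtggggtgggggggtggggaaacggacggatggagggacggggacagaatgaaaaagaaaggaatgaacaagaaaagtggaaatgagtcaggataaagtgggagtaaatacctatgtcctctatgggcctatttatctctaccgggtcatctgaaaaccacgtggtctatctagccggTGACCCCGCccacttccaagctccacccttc
Psmc6: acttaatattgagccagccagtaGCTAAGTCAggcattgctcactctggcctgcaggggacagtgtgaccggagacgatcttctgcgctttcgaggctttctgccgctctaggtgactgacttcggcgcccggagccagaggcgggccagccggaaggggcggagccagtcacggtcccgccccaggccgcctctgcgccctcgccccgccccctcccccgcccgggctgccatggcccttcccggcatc
Psmd12: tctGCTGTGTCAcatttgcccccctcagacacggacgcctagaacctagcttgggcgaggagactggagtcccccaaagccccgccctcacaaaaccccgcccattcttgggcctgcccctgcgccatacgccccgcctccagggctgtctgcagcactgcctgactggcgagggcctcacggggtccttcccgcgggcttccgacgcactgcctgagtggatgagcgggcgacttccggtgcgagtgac
The match starts 47 bases before the gene start in Psmb5 and 31 before it in Psmd9, and 227 and 247 bases before it in Psmc6 and Psmd12, where it reads on the opposite strand. Of the other genes with the core, Psmb6, with its match 9 bases before the start, was higher in that comparison. Psme4, with its match 7 bases before the start and on the opposite strand, was not called.

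Transcript length moved with the same contrast. The deviation of each locus from its mean log2(FPKM + 1) over the mice was regressed on log2 transcript length over 12434 loci. The slope lay between 0.0011 and 0.082 among db/m mice, between -0.041 and 0.072 among db/db mice, and between -0.24 and -0.045 among db/db-IF mice, so every db/db-IF mouse lay below every other mouse and short transcripts were relatively higher there. Members were set beside the other loci of like length, taken from the longest annotated transcript. Which transcripts were expressed was not examined, so the length of the measured RNA may differ. Of the members under 1000 nt, 6 of 6 were higher in db/db-IF mice than in the other mice, where 62% of the other loci of that length were. From 1000 to under 1500 nt it was 9 of 12 members and 47.6% of loci, and from 1500 to under 2000 nt it was 10 of 13 and 33.4%. From 2000 to under 3000 nt 6 of 10 members and 21.7% of loci were higher, and from 3000 nt on 1 of 6 members and 10.1% of loci.

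With the length trend removed within each mouse, 30 members were higher and 3 lower in db/db-IF than in the other mice, beside 26% of the 12481 loci in that fit that were higher and 21.6% that were lower, so that over all loci higher calls then outnumbered lower ones. Some named members that stayed past the threshold against db/db mice had smaller differences there. They were 0.22 for Psmb4, 0.25 for Psmb6, 0.15 for Psmc5, 0.33 for Psmg4 and 0.22 for Psme2. Psmb7 had a larger one, 0.22 beside 0.16 in the main fit. When the slope of each mouse entered the model as a covariate, 2 were higher and 0 lower, with 6 higher and 0 lower at an unadjusted p under 0.05, beside 0.747% of all loci higher and 0.152% lower. The slope and the fasted group do not overlap, and in such a model they cannot be told apart.

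By the base quality in the sequencing summary of the study, the libraries fell into a lower and a higher set of replicate numbers within each group. Within the lower set 27 members were higher and 2 lower in db/db-IF than in the other mice, beside 22.2% and 22.9% of all loci, and within the higher set 24 were higher and 1 lower, beside 13.5% and 18.4%. Each set holds fewer mice. The calls of Psmb2, Psmb7, Psmb8, Psmd11 and Psme1 against db/db mice were lost in both sets, with -0.41 for Psmd11 in each (limma adjusted p = 0.111 and 0.091). Between db/db and db/m mice 3 members were higher in the lower set, beside 1.04% of all loci, and 0 in the higher set. In the higher set 2 members were higher and 0 lower at an unadjusted p under 0.05, and 1 of all loci was called higher.

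All 7 tested alpha subunits were higher in db/db-IF mice than in the other mice, by 0.091 to 0.26, beside 26.8% of all tested loci. All 7 had means that rose from db/m over db/db to db/db-IF mice, an order held by 24.2% of all tested loci. Between db/db-IF and db/db mice, 3 of the 7 were higher past the threshold, beside 23.7% of all loci. Psma7, which forms part of the alpha ring, ranged between 183 and 237 among db/m mice (median 217), between 204 and 255 among db/db mice (median 236), and between 239 and 349 among db/db-IF mice (median 263) in FPKM. Every db/db-IF mouse was above every db/m mouse, whereas db/db and db/db-IF mice overlapped. The difference between db/db-IF and the other mice was 0.26 ± 0.053 (SE, limma adjusted p = 0.000109), and that between db/db-IF and db/db mice was 0.19 ± 0.057 (limma adjusted p = 0.00655).

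Psma4, another alpha subunit, was expressed at a lower level, between 12.6 and 14.9 among db/m mice (median 14.5), between 14.1 and 16.4 among db/db mice (median 15.3), and between 15.4 and 18.1 among db/db-IF mice (median 16.95). It too was above all db/m mice in all db/db-IF mice, with a difference from the other mice of 0.16 ± 0.033 (limma adjusted p = 0.000138). With the length trend removed, Psma4 differed by 0.036 from the other mice (adjusted p = 0.411) and by -0.014 from db/db mice, so the call was lost and the sign against db/db mice turned. For Psma7 the same setting left 0.11 against db/db mice (adjusted p = 0.0767). Psma3 and Psma5 showed the smallest alpha differences, 0.10 and 0.091. Psma8, an alpha subunit of the testis, did not pass the filter and stayed between 0.015 and 0.075 FPKM in all 31 mice.

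The 7 tested beta subunits of the standard core had a median difference of 0.33 from the other mice, beside 0.12 for the alpha subunits. All 7 were higher in db/db-IF mice than in db/db mice, than in db/m mice and than in both combined, with differences of 0.23 to 0.42 from the other mice combined. Of all tested loci 23.7%, 26.2% and 26.8% were higher in the same order. Psmb4 (chr3:94884324-94886958, GRCm38), a non-catalytic beta subunit, ranged between 268 and 304 among db/m mice (median 281), between 265 and 345 among db/db mice (median 292), and between 343 and 423 among db/db-IF mice (median 364). Only db/db mouse 10, at 345 FPKM, reached the lowest db/db-IF value. The difference from db/db mice was 0.35 ± 0.04 (limma adjusted p = 2.83e-07), and db/db and db/m mice differed by 0.034 ± 0.039 (limma adjusted p = 0.688).

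A similar pattern was seen for Psmb1, also non-catalytic, which ranged between 132 and 152 among db/m mice (median 140.0), between 136 and 168 among db/db mice (median 146), and between 167 and 214 among db/db-IF mice (median 181). Again db/db mouse 10 alone reached the db/db-IF range. Psmb1 was higher than in the other mice by 0.32 ± 0.035 (limma adjusted p = 2.09e-08). Psmb3 had the largest beta difference, 0.42 ± 0.06 (limma adjusted p = 1.26e-06), and the highest level of the beta genes, 686 to 1431 FPKM over the 31 mice.

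The 3 catalytic subunits rose as well. Psmb6 (chr11:70525324-70527858, GRCm38), whose protein cuts after acidic residues, ranged between 31.97 and 42.5 among db/m mice (median 38.4), between 35.2 and 43.8 among db/db mice (median 37.2), and between 45.9 and 61.3 among db/db-IF mice (median 49.1). All 10 db/db-IF mice were above all 21 others, which held for 1.37% of all tested loci in this direction and, with Psmc4 and Psmd9, for 3 members, while 1.45% of loci lay wholly below and no member did. Psmb6 differed from db/db mice by 0.39 ± 0.059 (limma adjusted p = 4.7e-06). The table holds a second Psmb6 locus, at a median of 0.567 of the first and listed at 0 in 2 db/m and 2 db/db mice, and how fragments were divided between the loci is not known here.

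Psmb5, the subunit with chymotrypsin-like activity and the target of bortezomib, ranged between 30.7 and 37.5 among db/m mice (median 33.9), between 33.2 and 44.5 among db/db mice (median 35.9), and between 38.5 and 60.8 among db/db-IF mice (median 44.5). Its db/db-IF values were above all db/m values and overlapped with db/db mice, and it differed from db/db mice by 0.26 ± 0.06 (limma adjusted p = 0.000647), but by 0.11 with the length trend removed (adjusted p = 0.0609). Psmb7, with trypsin-like activity, ranged between 75.05 and 91.9 among db/m mice (median 82.6), between 82.3 and 100.5 among db/db mice (median 90.5), and between 87.9 and 127 among db/db-IF mice (median 103), with overlap between all groups. It showed the smallest beta difference from the other mice, 0.23 ± 0.046 (limma adjusted p = 0.000117). With the length slope as a covariate the signs of both genes turned against the other mice, to -0.039 for Psmb5 and -0.044 for Psmb7.

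**Figure D2:**
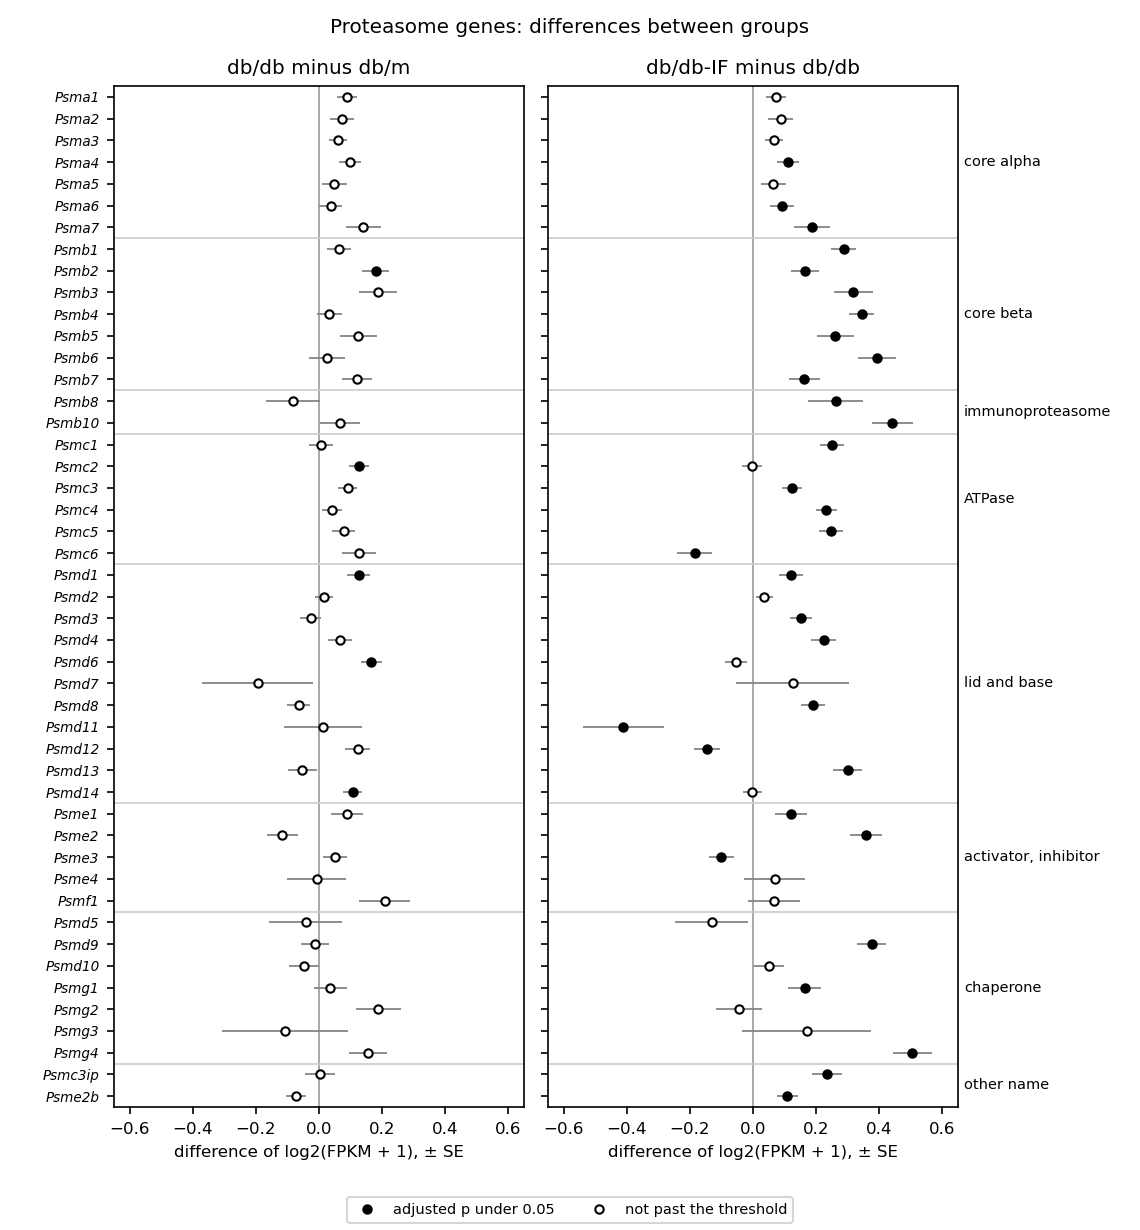
Differences in log2(FPKM + 1) ± SE for the 47 tested members, db/db minus db/m mice (left) and db/db-IF minus db/db mice (right), with filled points where the adjusted p was under 0.05. On the left 5 members are filled, all above 0, and on the right 28 are filled above 0 and 4 below, Psmc6, Psmd11, Psmd12 and Psme3.

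The immunoproteasome genes were expressed far below their constitutive partners in the hippocampus. Psmb10 (chr8:105935728-105938392, GRCm38), the inducible partner of Psmb7, ranged between 13.5 and 18.2 among db/m mice (median 15.3), between 13.6 and 20.7 among db/db mice (median 15.7), and between 19.3 and 28.5 among db/db-IF mice (median 22.6). All db/db-IF mice were above all db/m mice, and of the db/db mice only mouse 10 reached their range. It was higher in db/db-IF than in db/db mice by 0.44 ± 0.065 (limma adjusted p = 3.57e-06). Its locus is shared with Ctrl in the table, so the values cannot be given to Psmb10 alone. The same limit holds for Psmb5, which shares its locus with Mir686, for Psme4 with Gpr75 and for Psme2b with 9930111J21Rik1.

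Psmb8, the inducible partner of Psmb5, was near the filter limit, between 0.807 and 1.84 among db/m mice (median 1.16), between 0.847 and 1.24 among db/db mice (median 1.03), and between 0.958 and 2.69 among db/db-IF mice (median 1.27). The groups overlapped widely, and db/db-IF mouse 11 was highest. Psmb8 was past the threshold between db/db-IF and the other mice (0.22 ± 0.075, limma adjusted p = 0.0126), but without db/db-IF mice 1, 7 and 11 it was not (0.11, adjusted p = 0.18). A second Psmb8 locus of nearly equal level, at a median of 0.949 of the first, is in the table. Psmb9, the inducible partner of Psmb6, did not pass the filter and ranged between 0.383 and 1.48 among db/m mice (median 0.825), between 0.104 and 0.850 among db/db mice (median 0.510), and between 0.494 and 2.16 among db/db-IF mice (median 0.820). Psmb11, the beta subunit of the thymus, stayed between 0.013 and 0.082 FPKM, and Psmb7-ps2 between 0.011 and 0.054 FPKM.

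The ratio of an inducible to a constitutive subunit within a mouse does not depend on the scaling of that mouse, but a length bias enters it where the transcripts differ in length. The Psmb10 to Psmb7 ratio, in percent, lay between 16.6 and 20.1 among db/m mice (median 18.6), between 15.1 and 20.8 among db/db mice (median 17.7), and between 18.4 and 25.3 among db/db-IF mice (median 22.3). The log2 ratio was higher in db/db-IF than in db/db mice by 0.30 (permutation test, two-sided, adjusted over 9 comparisons p = 0.00171) and than in db/m mice by 0.25 (permutation test, adjusted p = 0.00171). The longest transcripts have 1311 nt in Psmb10 and 2849 nt in Psmb7, and with the length trend removed the differences from db/db mice were 0.34 and 0.22 (limma adjusted p = 1.95e-05 and 0.00135), while the ratio itself was not tested in that setting. Within the mice of higher read quality alone the differences were 0.21 and 0.20 and did not pass the threshold (exact permutation test, adjusted p = 0.286 and 0.25).

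The Psmb8 to Psmb5 ratio had a median of 3.18% among db/m, 2.82% among db/db and 3.08% among db/db-IF mice, and the Psmb9 to Psmb6 ratio one of 2.27, 1.37 and 1.503%. Both ratios use only the locus with the highest mean level of each name and leave out the second Psmb8 and Psmb6 loci. Ratios of summed loci were not tested. In db/db minus db/m mice the log2 ratios differed by -0.28 and -0.74, which did not pass the threshold (permutation test, adjusted p = 0.0538 and 0.0532, unadjusted p = 0.0239 and 0.0177). Neither differed past the threshold between db/db-IF and db/db mice, by 0.19 and 0.43 (permutation test, adjusted p = 0.315 for both). Microglia express these inducible subunits, and 0 of the 4 tested microglial markers were higher in db/db-IF mice while 3 were lower, with summed levels of 217 to 281 FPKM (db/m), 209 to 242 FPKM (db/db) and 167 to 261 FPKM (db/db-IF). Of these markers Aif1, which failed the filter, is listed at 0 in single mice, and the part of microglia in the ratios was not tested.

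**Figure D3:**
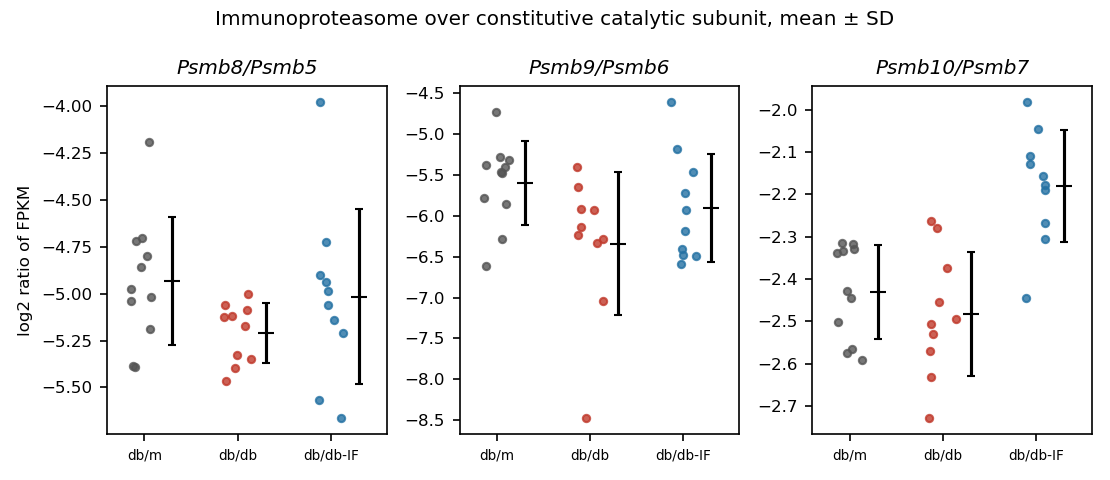
The log2 ratio of FPKM of each inducible catalytic subunit to its constitutive partner in every mouse (points), with the mean ± SD of each group (bars). In the Psmb10 to Psmb7 panel the mean is -2.18 for db/db-IF mice, -2.48 for db/db mice and -2.43 for db/m mice, and in every panel the groups overlap.

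In the ATPase ring, 4 of the 6 genes were higher in db/db-IF mice than in the other mice, beside 26.8% of all tested loci. Psmc4 (chr7:28041702-28050092, GRCm38), an ATPase of the cap, ranged between 104 and 118 among db/m mice (median 111), between 107 and 124 among db/db mice (median 115), and between 127 and 149 among db/db-IF mice (median 134). Its db/db-IF values did not overlap with any other mouse, and they exceeded db/db mice by 0.23 ± 0.033 (limma adjusted p = 1.95e-06). Psmc5 ranged between 197 and 231 among db/m mice (median 213), between 206 and 256 among db/db mice (median 221), and between 245 and 299.7 among db/db-IF mice (median 262). Of the other mice only db/db mouse 10 reached its db/db-IF range, and the difference from the other mice was 0.29 ± 0.035 (limma adjusted p = 8.54e-08). Psmc1 and Psmc3 were higher by 0.25 and 0.17.

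The remaining ATPase genes differed from this pattern. Psmc6 was lower in db/db-IF than in db/db mice, at a difference of -0.18 ± 0.055 (limma adjusted p = 0.00662). Psmc2 had by far the highest FPKM of all members and ranged between 1920.1 and 2140.3 among db/m mice (median 1969), between 1959 and 2272 among db/db mice (median 2198), and between 1962 and 2457 among db/db-IF mice (median 2171). Relative to db/m mice it was higher in db/db mice by 0.13 ± 0.032 (limma adjusted p = 0.0159), and db/db-IF and db/db mice differed by -0.0025 ± 0.033 (limma adjusted p = 0.954). Since the members of a ring are built in equal numbers, the gap between Psmc2 and the next ATPase, Psmc1 at up to 342 FPKM, is a property of these values and its source was not tested.

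The non-ATPase subunits of the cap were divided. Of 11 genes 5 were higher and 1 lower in db/db-IF than in the other mice, and 5 higher and 2 lower than in db/db mice. Over all tested loci 26.8% were higher and 30.9% lower in the former comparison, and 23.7% and 27.4% in the latter. Psmd4, a receptor for ubiquitin chains, ranged between 118 and 134 among db/m mice (median 128), between 126 and 149.6 among db/db mice (median 133), and between 129 and 173 among db/db-IF mice (median 159). Mice 8 and 10 of the db/db-IF group, at 149 and 129 FPKM, were below the highest db/db mouse, and the difference from the other mice was 0.26 ± 0.036 (limma adjusted p = 5.8e-07). Psmd13, a subunit of the lid, ranged between 22.5 and 23.7 among db/m mice (median 22.9), between 19.04 and 24.2 among db/db mice (median 22.6), and between 22.6 and 34.6 among db/db-IF mice (median 27.6). It was higher than in db/db mice by 0.30 ± 0.047 (limma adjusted p = 7.38e-06), with db/db-IF mouse 7 highest and mouse 1 within the range of the controls. Psmd3 and Psmd8 were higher than in the other mice by 0.14 and 0.16.

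The exception was Psmd11 (chr11:80428615-80473248, GRCm38), a lid subunit whose amount limits cap assembly in human pluripotent stem cells. It ranged between 10.6 and 20.9 among db/m mice (median 12.5), between 10.1 and 23.3 among db/db mice (median 11.4), and between 8.44 and 11.3 among db/db-IF mice (median 9.37). Near-double values in db/m mouse 2 and db/db mice 2 and 7 set the upper ends, and all other mice lay at 14.5 FPKM or below. The ranges overlapped, and Psmd11 fell by 0.40 ± 0.11 against the other mice (limma adjusted p = 0.00206). Leaving out any single mouse did not end this call. Psmd12, a further lid subunit, was lower in db/db-IF than in db/db mice, at -0.15 ± 0.041 (limma adjusted p = 0.00392) and did not pass against the other mice (-0.081, limma adjusted p = 0.0814).

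**Figure D4:**
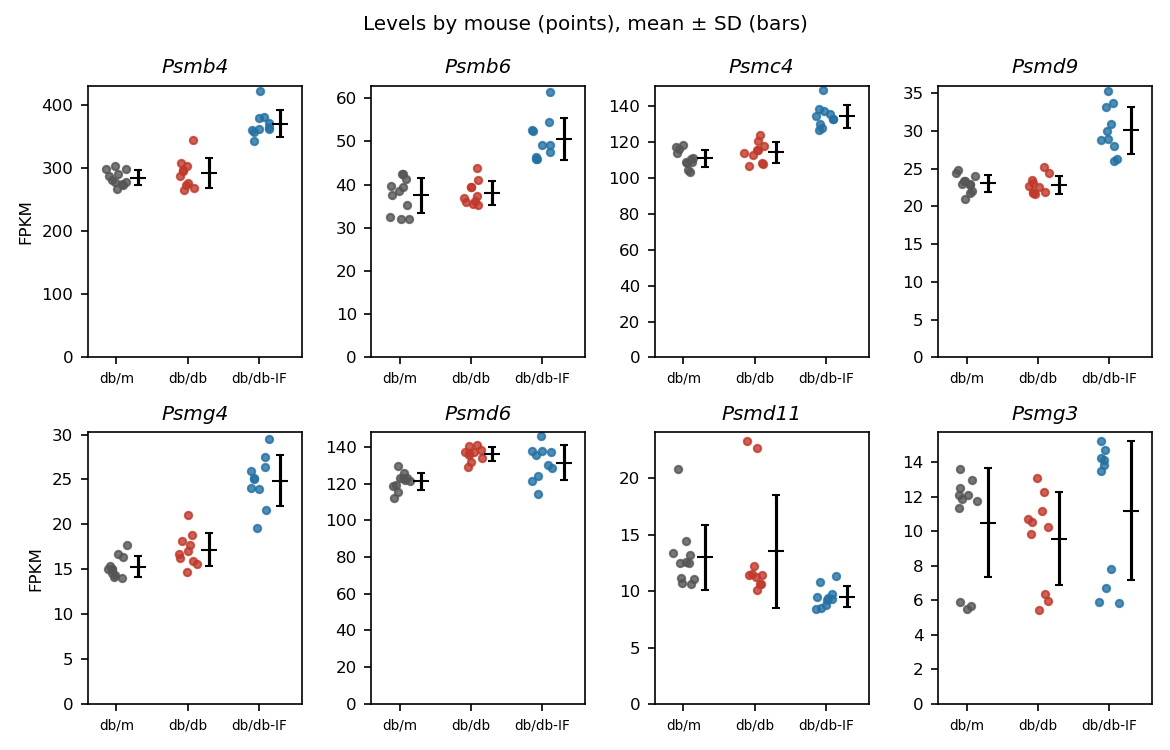
FPKM of 8 members in every mouse (points), with the mean ± SD of each group (bars). The db/db-IF mice lie above all others in Psmb6, Psmc4 and Psmd9, while Psmd6 is above its db/m level in most db/db mice, and Psmd11 and Psmg3 fall into separate levels within groups.

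The 5 members that rose in db/db against db/m mice (10.6% of the 47, beside 2.96% of all loci) were Psmb2, Psmc2, Psmd1, Psmd6 and Psmd14. With equal medians Psmb2 and Psmd6 alone were called, within the lower read-quality set Psmb2, Psmd1 and Psmd14 were not, and within the higher set none of the 5 was. Psmd6 (chr14:14112185-14120945, GRCm38), a lid subunit, ranged between 112 and 129.7 among db/m mice (median 122), between 129 and 141 among db/db mice (median 137), and between 114 and 146 among db/db-IF mice (median 133). Only db/db mouse 6 fell within the db/m range, and Psmd6 rose by 0.17 ± 0.034 (limma adjusted p = 0.00328). Its db/db-IF values spread over both ranges and differed from db/db mice by -0.054 ± 0.035 (limma adjusted p = 0.19).

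Psmb2, a non-catalytic beta subunit, ranged between 58.6 and 68.7 among db/m mice (median 64.8), between 64.6 and 81.02 among db/db mice (median 72.8), and between 72.7 and 96.8 among db/db-IF mice (median 81.6). It rose in db/db mice by 0.18 ± 0.043 (limma adjusted p = 0.00966) and was higher again in db/db-IF mice, by 0.17 ± 0.044 (limma adjusted p = 0.00241). With the length trend removed the latter was 0.015 (adjusted p = 0.763), and it also did not pass within either read-quality set (adjusted p = 0.114 and 0.0504). Psmd1, a scaffold of the cap, ranged between 14.5 and 16.7 among db/m mice (median 16.2), between 16.4 and 19.3 among db/db mice (median 17.8), and between 17.8 and 22.2 among db/db-IF mice (median 19.04). Psmd1 exceeded its db/m level in db/db mice by 0.13 ± 0.037 (limma adjusted p = 0.0386), and this call was lost when any of 11 mice was left out (adjusted p 0.0156 to 0.0782 over the 31 mice left out in turn). It differed between db/db-IF and db/db mice by 0.12 ± 0.038 (limma adjusted p = 0.0086), but not past the threshold without db/db-IF mice 1, 7 and 11 (0.072, adjusted p = 0.0969) or within the higher read-quality set (adjusted p = 0.214). Psmd14, the subunit that removes ubiquitin chains, ranged between 14.7 and 16.7 among db/m mice (median 15.1), between 15.50 and 17.3 among db/db mice (median 16.5), and between 15.1 and 17.5 among db/db-IF mice (median 16.8). It rose by 0.11 ± 0.031 (limma adjusted p = 0.0313), lost the call when any of 6 mice was left out, and differed by -0.0011 ± 0.031 between db/db-IF and db/db mice (limma adjusted p = 0.979).

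Of the activators and the inhibitor, 2 of 5 were higher in db/db-IF than in the other mice, beside 26.8% of all tested loci. These 2 are the genes of the interferon-inducible activator ring. Psme2, a subunit of that ring, ranged between 16.2 and 22.9 among db/m mice (median 19.2), between 16.4 and 19.6 among db/db mice (median 17.3), and between 20.03 and 26.4 among db/db-IF mice (median 22.5). Every db/db-IF mouse was above every db/db mouse, and db/m mice lay across both ranges. The difference from db/db mice was 0.36 ± 0.051 (limma adjusted p = 2.37e-06), and 0.22 with the length trend removed (adjusted p = 0.000108). Psme1, its partner subunit, ranged between 19.5 and 23.9 among db/m mice (median 21.8), between 21.05 and 25.9 among db/db mice (median 23.4), and between 22.5 and 31.98 among db/db-IF mice (median 25.2), with overlap of all groups. It differed from the other mice by 0.17 ± 0.045 (limma adjusted p = 0.0022) and from db/db mice by 0.12 ± 0.051 (limma adjusted p = 0.0459), a call that was lost when any of 13 mice was left out, among them db/db-IF mouse 7 (0.086, adjusted p = 0.107).

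Psme3, which forms the activator of the nucleus, was lower in db/db-IF than in db/db mice, at -0.10 ± 0.039 (limma adjusted p = 0.0347). Psme4, a single-chain activator, and Psmf1, an inhibitor and adaptor of the proteasome, did not pass between db/db-IF and the other mice, at 0.066 and 0.18 (limma adjusted p = 0.504 and 0.0514). In Psmf1, db/m mouse 6 stood at 17.2 FPKM while all other mice were between 32.4 and 44.1.

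Among the assembly chaperones 3 of 7 were higher in db/db-IF than in the other mice, beside 26.8% of all tested loci. Psmg4 (chr13:34162964-34178172, GRCm38), part of a chaperone pair that guides the alpha ring, showed the largest difference of all members. It ranged between 13.98 and 17.7 among db/m mice (median 15.01), between 14.7 and 21.1 among db/db mice (median 16.8), and between 19.6 and 29.5 among db/db-IF mice (median 25.1), and only db/db mouse 10 reached the db/db-IF range. The difference was 0.59 ± 0.058 from the other mice (limma adjusted p = 6.67e-09) and 0.51 ± 0.061 from db/db mice (limma adjusted p = 3.65e-07). By the longest annotated transcript Psmg4, at 555 nt, is also the shortest of the tested members. With the length trend removed its difference from the other mice was 0.40 (adjusted p = 1.04e-07).

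Psmd9 (chr5:123228190-123250126, GRCm38), a chaperone of the ATPase ring, ranged between 21.01 and 24.8 among db/m mice (median 23.02), between 21.6 and 25.2 among db/db mice (median 22.6), and between 25.98 and 35.2 among db/db-IF mice (median 29.5). All db/db-IF mice were above all other mice. It differed from the other mice by 0.37 ± 0.04 (limma adjusted p = 1.83e-08), and by 0.42 with the length trend removed (adjusted p = 2.3e-08). Its longest annotated transcript has 2634 nt. Psmg1 was higher by 0.18 (limma adjusted p = 0.000926), while Psmg2, Psmd5 and Psmd10 did not pass (0.056, -0.15 and 0.027).

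Psmg3, the partner of Psmg4, fell into separate levels that did not follow the groups. It stood between 5.47 and 7.82 FPKM in 10 mice, 4 of them db/db-IF, 3 db/db and 3 db/m mice, and between 9.84 and 15.2 FPKM in the other 21. Psmd7, a lid subunit, stood at 22.4 and 22.9 FPKM in db/db mouse 7 and db/db-IF mouse 10 and between 60.7 and 87.0 FPKM in the other 29 mice. Over the 47 tested members 8 had a gap of at least 1.25-fold between neighbouring mice in the order of their levels, and neither Psmg3 (limma adjusted p = 0.594) nor Psmd7 (limma adjusted p = 0.903) was called between db/db-IF and the other mice. Of the names outside the proteasome, Psmc3ip and Psme2b were higher by 0.24 and 0.071.

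Single mice took many of the extreme values. In 28 of the 47 members db/db-IF mouse 7 was the highest of its group, against 17.2% of all tested loci, and in 18 members db/db-IF mouse 1 was the lowest, against 12.6%. Mouse 10 was the highest db/db mouse in 23 members, against 17.1% of loci, and mouse 7 the lowest db/m mouse in 20, against 15.2%. The length slope was -0.24 in db/db-IF mouse 7 and -0.041 in db/db mouse 10, each the lowest of its group. It was 0.082 in db/m mouse 7, the highest of its group, and -0.058 in db/db-IF mouse 1. Whether these extremes follow the slope was not tested. Without db/db-IF mice 1, 7 and 11, which stood apart in earlier results of these data, 32 members were higher and 1 lower in db/db-IF than in the other mice. Beside these, 21.4% of all loci were higher and 24.2% lower. Mice 1, 7 and 11 also enter the spread of the fit. Without them 11 members passed as higher in db/db against db/m mice, beside 5.88% of all loci, where 2.96% passed with them.

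The neuronal markers Neurod6 and Prox1 had values above 0 in every mouse. Of 5 neuronal markers 4 were lower and 0 higher in db/db-IF than in the other mice, with summed levels of 2037 to 2375 FPKM (db/m), 2161 to 2683 FPKM (db/db) and 1332 to 2301 FPKM (db/db-IF). Both tested haemoglobin loci were higher, with sums of 59.5 to 127, 71.3 to 186 and 107 to 424 FPKM in the same order. The sum of 4 choroid plexus markers, mostly Ttr, was 669 to 33017, 770 to 26228 and 4222 to 31708 FPKM, with 0 of the 4 past the threshold. Of 4 astrocyte markers 1 was lower, of 4 oligodendrocyte markers 1 was higher and of 3 endothelial markers 2 were lower. Over all tested loci 26.8% were higher and 30.9% lower. In db/db against db/m mice 2 of the 5 neuronal markers were higher, Syt1 by 0.22 and Neurod6 by 0.55 (limma adjusted p = 0.019 and 0.000542). The astrocyte marker Gfap and the microglial marker Tmem119 were lower there, at -0.40 and -0.20 (limma adjusted p = 0.00026 and 0.00566). Of all loci 2.96% were higher and 2.79% lower in that comparison. No neuronal, haemoglobin or choroid plexus marker was listed at 0 in any mouse, and the part of these cells in the proteasome values was not tested.

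On a list of 28 genes that work with the proteasome but are not named after it, 25 were analysed. Of these 5 (20%) were higher and 9 (36%) lower in db/db-IF than in the other mice, with a median difference of -0.12. Over all tested loci the shares were 26.8% and 30.9%, near those of this list. Higher were all 4 analysed genes of further subunits and assembly factors: Adrm1, a ubiquitin receptor, by 0.16 ± 0.037, Shfm1 (also called Sem1), a lid subunit, by 0.44 ± 0.051, Pomp, the maturation factor of the core, by 0.35 ± 0.042, and Akirin2, which carries proteasomes into the nucleus, by 0.16 ± 0.04 (limma adjusted p = 0.000522, 6.21e-08, 1.06e-07 and 0.00156). Uchl5, a deubiquitinase of the cap, was higher by 0.11.

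Of 4 genes that control proteasome transcription 3 fell, where 30.9% of all tested loci were lower. None of the 25 genes of this list was set beside loci of like length. Nfe2l1, the transcription factor that raises proteasome genes when proteasomes are inhibited, fell by 0.25 ± 0.037 (limma adjusted p = 2.33e-06), and Nfe2l2 and Ngly1, the latter needed to activate the Nfe2l1 protein, fell by 0.12 and 0.13. The other gene, Ddi2, whose protein cleaves the Nfe2l1 protein, was at -0.24 and did not pass (limma adjusted p = 0.0717). Its locus is shared with Rsc1a1. Usp14 and AI314180 (also called Ecpas), both of which bind the proteasome, fell by 0.43 and 0.45, the ubiquitin shuttles Rad23b and Ubqln1 by 0.21 and 0.26, the ubiquitin-activating enzyme Uba1 by 0.24 and the segregase Vcp by 0.37. The ubiquitin gene Ubb was at 0.043 and did not pass (limma adjusted p = 0.473). In db/db against db/m mice 0 of the 25 genes were called by limma, with 3 higher and 1 lower at an unadjusted p under 0.05.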

How the data were processed

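A single library of hippocampal RNA per mouse was available for 31 mice (db/m 11, db/db 10, db/db-IF 10), grouped by the sample labels. A figure legend of the study gives other sizes for the db/db and db/db-IF groups, with the same total. Per the labels and methods, the authors used Trimmomatic 0.38 for trimming and HISAT2 for alignment to GRCm38.p6, and they assembled and merged transcripts with StringTie 1.3.4d. The deposited values are FPKM per merged locus, of which the table has 27094. FPKM divides by transcript length, so a change in length bias between libraries moves it. The table holds no read counts, the read totals per library in the sequencing summary of the study were not used here, and precision is that of the spread between mice. No label says how the mice were housed or processed together.

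The log2(FPKM + 1) values were fitted by limma 3.58.1 under R 4.3.3, with a trend of the prior variance on mean expression, two-sided, on 17139 loci with FPKM above 1 in at least 10 mice and Benjamini-Hochberg adjustment over all of them (threshold 0.05). db/db-IF mice were compared with the other mice in a 2-group fit, and each pair of groups in a 3-group fit. Ratios of catalytic subunits were compared by permutation tests with 100000 resamples, or exact ones for fewer than 10 mice, in Python 3.11.15 with numpy 2.4.6, pandas 2.3.3 and scipy 1.17.1. Figures were drawn with matplotlib 3.10.9. Transcript lengths were those of the longest GENCODE transcript, known for all 51 members. The scripts were tested on simulated data.

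Genes named were the 2 members of each role with the smallest adjusted p against the other mice, those opposite to most, those called between db/db and db/m mice, the catalytic pairs and those that failed the filter. Further members were named after their values were seen, as was Psmc2 beside its ring. The members and lists were chosen with earlier results of these data known. Alternatives were a pseudocount of 0.1, other filters, rescaling, an ordinary linear model with a library-size term, array weights, a replicate block, read-quality sets, length corrections, summed loci, a threshold of 0.01 and leaving out mice. Some listed genes, among them Paaf1, Rps27a and Kl, were not analysed here, some items are not reported here, and protein sequences were not used here.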

Additional observations from a re-analysis of the deposited data

Results flagged for a closer look

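In 11 of 54 sets of 10 mice, 1 mouse lay apart from its group by a gap to its nearest neighbour that exceeded Dixon's critical share of the group's range. About 1 set in 20 would do so by chance if the sets were independent. They are not, because the members were measured in the same mice, so the 11 are not 11 separate results. In db/db-IF mouse 7 this held for 6 members, which were highest there: Psma7 at 349 FPKM (next 294), Psmb4 at 423 (next 382), Psmb1 at 214 (next 184), Psmd13 at 34.6 (next 28.2), Psme1 at 32.0 (next 27.4) and Psmb5 at 60.8 (next 48.5). In db/db mouse 10 Psmc5 was at 256 (next 227) and Psme2 at 19.6 (next 18.0). Psmb9 was at 2.16 in db/db-IF mouse 11 (next 1.26). The low values were Psma7 at 204 in db/db mouse 7 (next 229) and Psmc2 at 1959 in db/db mouse 6 (next 2115).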

How the results depend on the processing

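Counts are of the 47 members, and shares are of all tested loci. In db/db against db/m mice the share higher was 2.96% in the main fit. It was 2.46% with equal medians, 2.52% with quantile normalization, 4.44% with the ordinary linear model and 6.95% with array weights. In the lower and higher read-quality sets it was 1.04% and 0.00583%. It was 5.88% without db/db-IF mice 1, 7 and 11. With the length slope as a covariate it was 6.04%, and at the threshold of 0.01 it was 1.02%. In db/db against db/m mice the 5 higher members became 2 with equal medians, 3 with quantile normalization, 8 with an ordinary linear model and a library-size term, 13 with array weights (and 1 lower), 3 in the lower and 0 in the higher read-quality set, 8 with the length slope as a covariate (and 1 lower), 11 without db/db-IF mice 1, 7 and 11, and 2 at the threshold of 0.01. In db/db-IF against the other mice the 1 lower member became 2 with FPKM above 1 in all 31 mice, with the ordinary linear model and library-size term, and in the lower read-quality set, and 3 with the length trend removed or in the 3-group fit. The share of all loci lower there was 30.9% in the main fit and with the linear model. It was 32.4% with FPKM above 1 in all 31 mice and 22.9% in the lower set. It was 21.6% with the length trend removed and 31.5% in the 3-group fit. In the higher set 16 were higher and 0 lower against db/db mice, beside 8.13% and 12.2% of all loci. Against db/m mice it was 21 and 0, beside 9.53% and 13.2%. The 4 lower than db/db mice became 1 with quantile normalization and in the lower set, and the 1 lower than db/m mice became 2 with the length trend removed. With the slope as a covariate 2 were higher and 0 lower than the other mice, 2 and 0 than db/db, and 3 and 0 than db/m mice. Of all loci 0.747%, 1.37% and 1.81% were higher in the same order. The cause was not tested, except that each read-quality set holds fewer mice.

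Signs turned in named members. With the length trend removed Psma4 stood at -0.014 against db/db mice. With the slope as a covariate values against the other mice were -0.064 for Psme1, -0.016 for Psmd1, -0.039 for Psmb5 and -0.044 for Psmb7. Against db/db mice they were -0.0023 for Psma7, -0.091 for Psme1, -0.049 for Psmb2, -0.058 for Psmd1, -0.075 for Psmb5 and -0.082 for Psmb7. A pseudocount of 1 gave -0.21 for Psmb8 to Psmb5 and -0.27 for Psmb9 to Psmb6 between db/db and db/m mice, and -0.35 for the latter between db/db-IF and db/m mice, all past the threshold. Without db/db-IF mice 1, 7 and 11 these were -0.28, -0.74 and -0.59, also past it. The db/db against db/m values there rest on the same mice as in the main test. Their adjusted p changed only through the other ratio comparisons. Psmb10 to Psmb7 was 0.21 and 0.20 in the higher read-quality set and not past it.

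Leaving out each mouse gave 30 to 33 higher and 1 to 3 lower than the other mice, 26 to 30 and 3 to 4 than db/db, 34 to 36 and 1 to 1 than db/m mice, and 3 to 8 and 0 to 0 for db/db against db/m mice. The lowest of the latter, 3, came without db/m mouse 2 or db/db mouse 5, and the highest, 8, without db/db mouse 6. The 3 lower came without db/db-IF mouse 4, 6 or 8.

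Same-numbered mice did not deviate together (29 pairs, correlations of -0.27 to 0.16). With the replicate number as a block 31 were higher and 1 lower than the other mice, 26 and 3 than db/db, 34 and 1 than db/m mice, and 2 and 0 in db/db against db/m mice. Of all loci 25.3%, 21%, 25.3% and 1.35% were higher in the same order.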

Other observations

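Some members have more than 1 locus in the table. The second locus of Psmd10 stood at a median of 0.505 of the first (0.424 to 0.509 over the 31 mice), and that of Psmb8 at 0.949 (0.935 to 1.34). The second Psmb6 locus was at 22.6 to 33.9 FPKM in all 10 db/db-IF mice. The second locus of Psmd12 had a median of 0.386 FPKM among db/m mice, 0.451 among db/db mice and 0.948 among db/db-IF mice, while the first did not pass between db/db-IF and the other mice. These ratios were read after the values were seen.

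Spread within groups was small for most members. The coefficient of variation over the 47 tested members had a median of 5.30% among db/m, 5.92% among db/db and 8.05% among db/db-IF mice, and 5 members, Psmb8, Psmd5, Psmd7, Psmd11 and Psmg3, exceeded 20% in at least 1 group.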
